A study of Mus musculus with 6 samples.

Results

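The genes described here are 49 mouse genes whose products copy DNA in S phase, from the complexes that mark and license origins to the enzymes that supply deoxynucleotides and the cyclin E and CDK2 proteins that drive S-phase entry. They were chosen by name: a probe set belonged to them when its annotated symbol was on the list, and each gene was represented by its brightest probe set over all arrays. All 49 were measured, through 106 probe sets, among 18182 genes in all. The samples were GFP-positive cells sorted from trypsin-digested limbs of Tg:Pax7-nGFP mice on a C57BL/6:DBA2 background, either limb buds at embryonic day E12.5 or limbs at E17.5. Both ages carried the same transgene, in which Pax7 sequences drive a nuclear GFP, and the sorted cells were therefore those with reporter signal and not a single purified cell type. Each age had 3 arrays, lettered A, B and C and described as biological replicates.

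Before S phase, the origin recognition complex binds DNA and, with Cdc6 and Cdt1, loads the ring-shaped MCM2-7 helicase in an inactive form, a step called licensing. Kinases, Mcm10, Cdc45 and the GINS complex then turn the loaded ring into a moving helicase, and polymerases, a sliding clamp and its loader copy the strands behind it. Many of these genes are transcribed under E2F factors as cells leave G1, and in muscle the transition from dividing progenitors to differentiating myocytes is accompanied by exit from the cell cycle.

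Values are log2 signals, a difference is the E17.5 mean less the E12.5 mean of these signals, and a gene is called when its limma p, adjusted by Benjamini-Hochberg over all 18182 genes, is under 0.05. SE is the standard error of a difference and n is 3 arrays per age throughout. Precision is limited by how few arrays there are. The array medians lay between 3.38 and 3.47. E17.5 A and B stood apart from the other arrays: the SD of their difference over genes was 0.152, against 0.412 to 0.551 in the other pairs of one age. Each call on a member is therefore also given with these arrays averaged into 1 sample, and calls on other genes are given without this. The 11 muscle progenitor markers had a median level between 9.76 and 10.65 in every library, and Pax7 itself had a mean of 11.46 ± 0.28 (SD, n = 3) at E12.5 and 12.37 ± 0.15 at E17.5. Of the other progenitor markers, Msgn1 was in the background range, at 1.92 to 1.95 on all arrays, and Itga7 was there at E12.5 only, at 2.17 to 2.31 against 8.84 to 9.18 at E17.5. Pax3 fell by 2.56. Markers of other cells moved with age: 5 of 8 differentiating muscle genes rose (median level 9.34 to 10.84 at E12.5 and 11.32 to 11.88 at E17.5), and 3 of 6 erythroid genes fell (median level 4.18 to 7.15 at E12.5 and 2.98 to 3.26 at E17.5). Of 10 fibroblast markers 2 rose and 3 fell (median level 6.34 to 9.66 at E12.5 and 7.62 to 8.75 at E17.5), and of 8 leukocyte markers 2 rose and 4 were under 4 on every array. Of 6 smooth muscle markers 2 rose and 1 fell, while 2 of 6 surface ectoderm and 2 of 4 Schwann cell markers fell. Among 8 endothelial markers 1 rose, Tek, and the other 7 had a difference below 0. Among 8 cartilage markers 1 fell. The mean over all arrays was under 4 in 5 endothelial, 3 Schwann cell, 3 surface ectoderm, 2 smooth muscle and 2 cartilage markers. E12.5 B had the highest median level of its age in all these lists, the muscle progenitor list excepted. The part of these cells in the replication gene values was not tested, and in RNA from pooled sorted cells a smaller number of replicating cells and less RNA in each of them cannot be told apart.

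Few of the replication genes passed the test between the ages, and the differences were small next to those of the 8758 genes with a mean of at least 6. At E17.5, 2 of the 49 rose, the cyclin gene Ccne1 and the thymidine kinase gene Tk1, and 4 fell: Orc1 of the origin recognition complex, the helicase activator Mcm10, the polymerase epsilon gene Pole and the clamp loader subunit Rfc4. These are 4.08% and 8.16% of the members, where 8.21% of all genes rose and 8.73% fell, so that in this setting the share of members called was not above the background. Among the 8758 genes whose mean reached 6, the range in which all 49 members lay, 13.2% rose and 13.2% fell. These genes were not matched to the members in brightness, and their median SE was 0.19, against 0.14 in the members. Arrays centred on bright genes gave 2 risen and 9 fallen members in place of 2 and 4, which is 4.08% and 18.4% of members beside 8.16% and 9.35% of all genes. A further quantile normalization gave 2 and 8, or 4.08% and 16.3% beside 8.08% and 8.52%. Weights that discount arrays with a wide spread gave 6 and 19, or 12.2% and 38.8% beside 17.6% and 28.7%. The weights were 4.97, 3.24 and 0.14 for E17.5 A, B and C, and 0.386, 0.239 and 4.8 for E12.5 A, B and C. That fit thus rests mainly on E12.5 C and on E17.5 A and B, the nearly identical arrays. With E17.5 A and B averaged 1 member rose and 1 fell (2.04% each), beside 5.62% and 4.54% of all genes. The fallen share of members was thus above that of all genes in some settings and below it in others. Of all genes 42.8% had a mean under 4, and no member did. Fitted among genes with a mean of at least 6 only, 18.4% of members fell, beside 17.1% of the genes fitted. The share of such genes that fell under the centred and quantile settings was not taken.

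**Figure D1:**
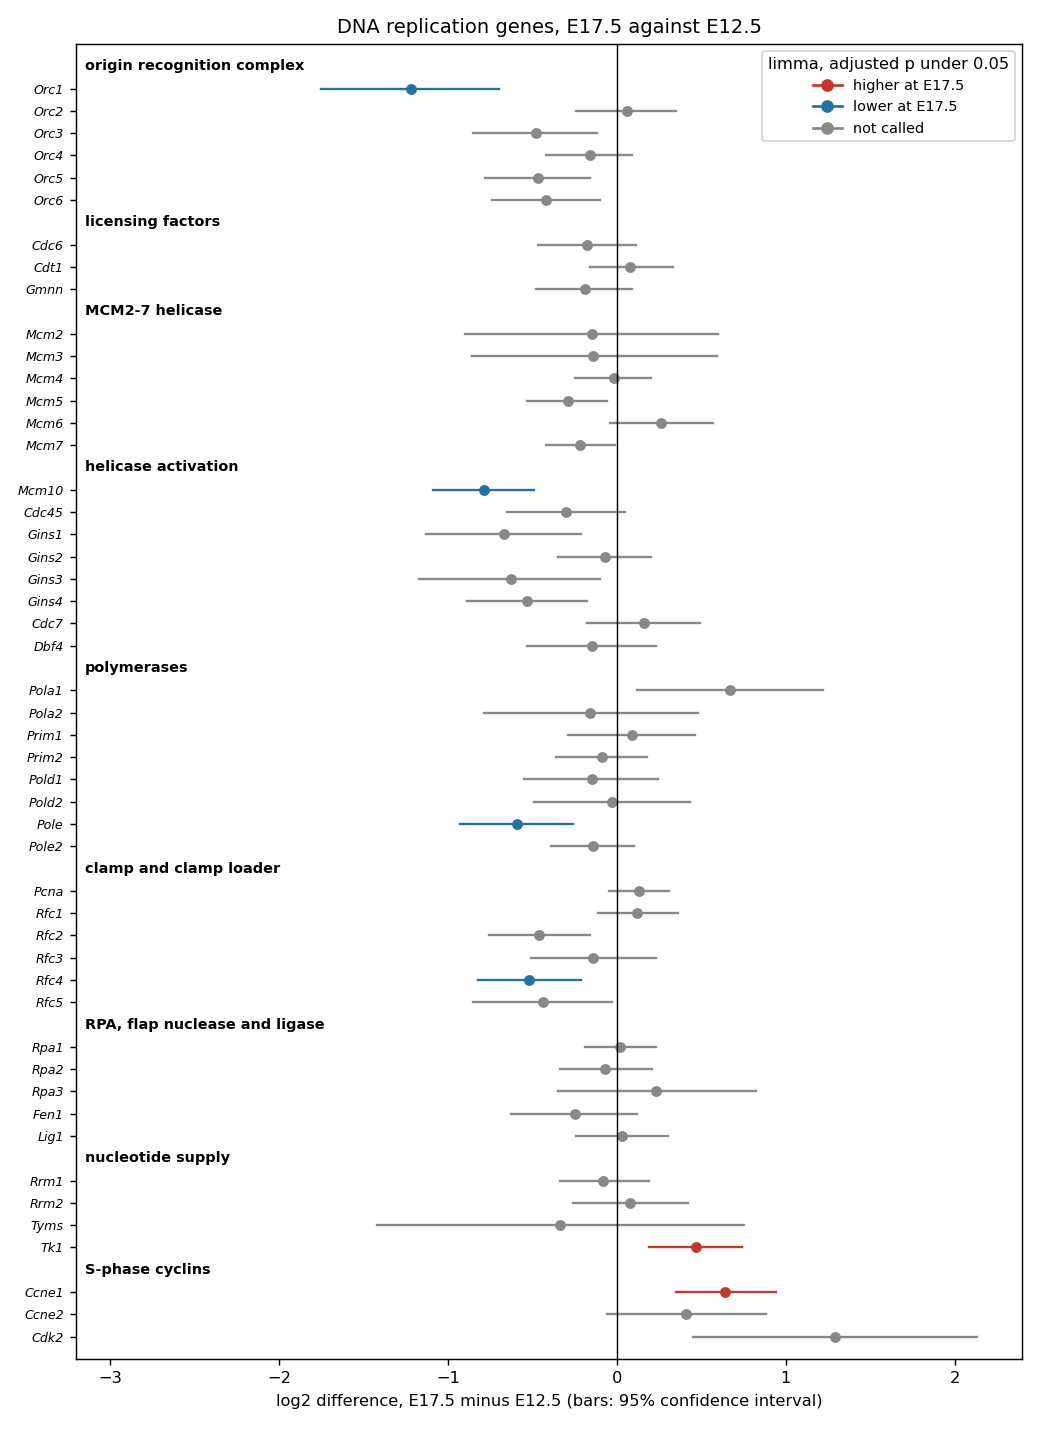
Log2 difference between E17.5 and E12.5 for each of the 49 DNA replication genes, grouped by role, with points for the fitted difference and bars for its 95% confidence interval (3 arrays per age). Of the 49 points, 33 (67.3%) lie below 0, beside 55.9% of the 8758 genes with a mean of at least 6. Within 0.5 of 0 lie 39 points, while Orc1 at -1.22 and Cdk2 at 1.29 are the lowest and the highest.

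Of the 49 genes, 33 (67.3%) had a difference below 0 and 16 had one above 0. Below 0 lay 55.9% of the 8758 genes with a mean of at least 6, and 47.5% of all genes. The median difference of the 49 genes was -0.14, beside -0.08 in those 8758 genes. It was -0.06 without E12.5 C, -0.07 without E17.5 C and -0.08 without E12.5 B, so that leaving out 1 array could bring it to -0.08 or nearer to 0. The median size of a difference was 0.19 in the members, 0.39 in those genes and 0.17 over all 18182 genes, of which many lie in the background range. A difference under 0.5 was found in 39 of the 49 members (79.6%) and in 60.1% of the genes with a mean of at least 6. Only 2 members (4.08%) reached a difference of 1 in either direction, Orc1 and Cdk2, against 16.6% of those genes. All 3 arrays of one age lay above all 3 of the other in 6 members that were higher at E17.5 and in 15 that were lower, whereas 28 members overlapped. Of all genes, 14.2% were separated upward in this way and 17.2% downward, and 22.3% and 25.7% of those with a mean of at least 6.

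**Figure D2:**
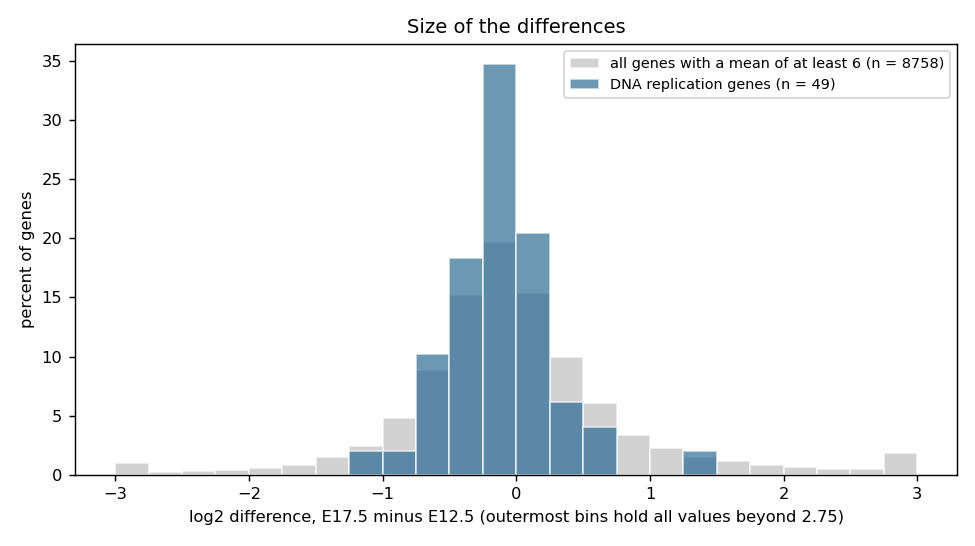
Distribution of the log2 difference between E17.5 and E12.5, as percent of genes per bin of 0.25, for the 49 DNA replication genes (blue) and for the 8758 genes with a mean of at least 6 (grey). The replication genes crowd around 0, with 79.6% under 0.5 in size against 60.1% of the genes with a mean of at least 6, which were not matched to them in brightness.

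Since E2F factors are known to act on many replication genes, the promoter sequences were searched for E2F-type letters. RefSeq promoter windows (build GRCm38.p6, 250 bases before to 50 after the start site) were matched for 40 of the 49 genes, in 49 windows. Both strands were searched for TTTCCCGC, TTTCGCGC, TTTGCCGC and TTTGGCGC. A match was found in 15 of the 49 windows (30.6%) and in 744 of all 32851 windows (2.26%). The box CCAAT was in 53.1% of the members' windows and 37.4% of all windows, and the letters TTTGAA were in 16.3% and 17.9%. The members' windows had a median GC content of 61.3%, against 52.7% in all windows, and the motifs were counted without a correction for this. The median difference between the ages was -0.14 in the 15 genes with a match and -0.08 in the 25 without one. Of the 5 called genes with a window, Orc1 alone held a match. The 250 bases before the start site are printed for 4 genes, with matches in capitals, to set a gene that fell and a gene that rose beside a pair without a call: Orc1, which fell (chr4:108579204-108579453, plus strand), Mcm6, which had 3 matches and no call (chr1:128359706-128359955, minus strand), Cdk2, which had 1 match and missed the test (chr10:128705052-128705301, minus strand) and Ccne1, which rose without a match (chr7:38107491-38107740, minus strand).
Orc1: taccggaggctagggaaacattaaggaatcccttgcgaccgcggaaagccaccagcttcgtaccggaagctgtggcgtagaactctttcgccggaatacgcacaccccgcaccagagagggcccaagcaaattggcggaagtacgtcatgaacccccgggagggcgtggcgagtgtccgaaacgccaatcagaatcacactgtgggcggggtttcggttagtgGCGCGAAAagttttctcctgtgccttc
Mcm6: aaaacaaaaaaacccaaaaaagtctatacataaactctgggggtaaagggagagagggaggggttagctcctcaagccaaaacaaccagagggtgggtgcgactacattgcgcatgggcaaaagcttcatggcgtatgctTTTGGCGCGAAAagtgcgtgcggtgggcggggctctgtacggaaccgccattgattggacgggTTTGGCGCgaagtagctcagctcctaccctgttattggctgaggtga
Cdk2: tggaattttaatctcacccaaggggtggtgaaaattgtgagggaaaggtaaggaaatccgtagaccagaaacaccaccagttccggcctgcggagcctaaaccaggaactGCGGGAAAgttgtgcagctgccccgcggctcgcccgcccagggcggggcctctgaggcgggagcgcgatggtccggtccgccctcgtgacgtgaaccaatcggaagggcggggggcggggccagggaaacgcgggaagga
Ccne1: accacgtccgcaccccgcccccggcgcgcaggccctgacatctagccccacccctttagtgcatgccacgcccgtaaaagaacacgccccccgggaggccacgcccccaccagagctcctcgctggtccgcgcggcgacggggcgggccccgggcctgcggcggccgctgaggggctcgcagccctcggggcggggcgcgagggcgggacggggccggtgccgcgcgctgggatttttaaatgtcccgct

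In Orc1 the match reads GCGCGAAA, beginning 27 bases before the start site, on the minus strand of the printed sequence. In Mcm6 the matches begin 110, 106 and 47 bases before the start, and the first and second overlap. In Cdk2 GCGGGAAA begins 140 bases before it. A match is a run of letters and no measured binding, and its lack in Ccne1 says only that these letters are not in this window.

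Origin recognition complex genes were mostly lower at E17.5, and 1 of the 6 passed the test. Orc1, the large ATPase subunit of the complex, had values of 6.68, 6.72 and 7.04 at E12.5 and of 5.57, 5.69 and 5.51 at E17.5. The lowest E12.5 array, at 6.68, was above the highest E17.5 array, at 5.69. Orc1 fell by 1.22 (SE 0.22, 95% interval -1.75 to -0.70, adjusted p = 0.0109), a 2.33-fold decrease. Its mean signal over the arrays was 6.20, and its second probe set, with values of 5.65, 5.18 and 5.17 against 5.16, 5.15 and 4.51, differed by -0.39. The call was lost without E17.5 A (adjusted p = 0.0565), without E17.5 B (0.0509) and with these arrays averaged (0.0518), while the difference stayed between -1.29 and -1.11 on leaving out single arrays.

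Orc5, another subunit of the complex, read 9.67, 9.61 and 9.91 at E12.5 and 9.27, 9.13 and 9.38 at E17.5. The ages did not overlap, but the difference of -0.47 (SE 0.13, 95% interval -0.78 to -0.16) missed the threshold at an adjusted p of 0.054. Orc3 read 8.51, 8.75 and 8.75, then 8.36, 8.20 and 8.0, a difference of -0.48 with an adjusted p of 0.0835. Orc6, needed with the other subunits for origin binding and licensing, differed by -0.42 (adjusted p = 0.0879), also without overlap. Orc4 differed by -0.16 (adjusted p = 0.418). Orc2 was near 0, at 0.06 with a 95% interval of -0.24 to 0.35. In all, 5 of the 6 subunits were lower on every E17.5 array than on any E12.5 array, and the median difference of the complex was -0.44. Of genes with a mean of at least 6, 25.7% were separated downward in this way. The count of 5 subunits holds for the brightest probe sets, since those of Orc2, Orc3 and Orc4 each disagreed within the gene. The second probe set of Orc2 differed by -0.53, and the 4 probe sets of Orc4 gave -0.16, 0.29, 0.21 and -1.03. The other probe sets of Orc3 gave -0.04 and 0.37, and the mean of all its probe sets gave -0.05.

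The factors that load the helicase were not called by limma, and 0 of the 3 had an unadjusted p under 0.05. Gmnn encodes geminin, the inhibitor of Cdt1 that prevents a second round of licensing, and read 11.36, 11.14 and 11.36 at E12.5 and 11.23, 11.12 and 10.93 at E17.5. Its ages overlapped and its difference was -0.19 (SE 0.12, adjusted p = 0.382). Cdc6, an ATPase that joins the complex at origins, differed by -0.18 (95% interval -0.47 to 0.11). Cdt1, the partner that brings the helicase ring, differed by 0.08 (-0.16 to 0.33). For these 3 genes the intervals leave room for changes of less than 0.5 in either direction.

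The MCM2-7 ring genes gave 0 limma calls in 6, with 2 genes at an unadjusted p under 0.05. Mcm5 came nearest, at 14.23, 14.12 and 14.17 on the E12.5 arrays and 13.80, 13.80 and 14.04 on the E17.5 arrays. All E17.5 values were below the lowest E12.5 value, and the difference was -0.29 (SE 0.10, 95% interval -0.53 to -0.06, adjusted p = 0.1). Mcm7 was also separated, by -0.22 (adjusted p = 0.151). The separation of Mcm5 holds for its brightest probe set. Another overlapped between the ages, with a difference of -0.30, and one of mean 5.66 gave 0.50. The mean of all Mcm5 probe sets gave -0.03. Mcm6 was the member of the ring with a difference above 0, of 0.26 (95% interval -0.04 to 0.57), and Mcm4 was near 0 at -0.02 (-0.25 to 0.20). Mcm2 and Mcm3 could not be placed as closely, since their intervals ran from -0.90 to 0.60 and from -0.86 to 0.59. In Mcm2 the values were 9.98, 10.98 and 11.12 at E12.5 and 10.65, 10.75 and 10.24 at E17.5, so that the lowest arrays of the ages were E12.5 A and E17.5 C. Without E12.5 C or E17.5 C the sign of the Mcm2 difference turned, at 0.07 and 0.01.

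Helicase activation genes lay lower at E17.5 in 7 of 8 cases, 5 of them without overlap, and 1 was called. Among genes with a mean of at least 6, 55.9% lay lower and 25.7% were lower without overlap. Mcm10, which binds the loaded ring and is needed for it to unwind DNA, read 9.82, 9.60 and 9.83 at E12.5 and 8.97, 8.83 and 9.07 at E17.5. The ages were far apart next to the spread within them. Mcm10 fell by 0.79 (SE 0.13, 95% interval -1.09 to -0.49, adjusted p = 0.00657), a 1.73-fold decrease. It was the member with the steadiest call, made in 18 of 19 other settings, among them the averaged E17.5 arrays (adjusted p = 0.0352). The exception was the mean of all its probe sets (-0.26, adjusted p = 0.216), since its other probe sets read between 2.27 and 2.31 on all arrays, in the range of background.

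The GINS complex of 4 subunits travels with the helicase. Gins1 read 11.31, 10.81 and 11.05 at E12.5 and 10.14, 10.30 and 10.72 at E17.5, a difference of -0.67 (SE 0.19, adjusted p = 0.0599). Gins4 read 9.86, 9.81 and 9.85, then 9.15, 9.17 and 9.60, a difference of -0.53 (SE 0.15, adjusted p = 0.0531). In both genes E17.5 C was the highest array of its age and the ages stayed apart. Without E17.5 C, which leaves only the nearly identical arrays A and B at that age, both passed the test, with -0.84 (adjusted p = 0.0252) for Gins1 and -0.68 (0.00807) for Gins4. With A and B averaged they gave -0.59 (0.179) and -0.46 (0.192). Gins3 read 7.91, 7.23 and 7.78, then 6.96, 7.0 and 7.06, a difference of -0.63 (SE 0.22, adjusted p = 0.114). It passed without E12.5 B (-0.84, adjusted p = 0.0373) but not with E17.5 A and B averaged (-0.62, 0.285). Its other probe set, of mean 5.83, differed by 0.06, and the mean of its probe sets gave -0.28. The remaining subunit, Gins2, differed by -0.07 (95% interval -0.35 to 0.20). Cdc45, the third component of the moving helicase beside the ring and GINS, differed by -0.30 (-0.65 to 0.05). The kinase gene Cdc7 and its activator Dbf4 differed by 0.16 and -0.15, and both overlapped.

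**Figure D3:**
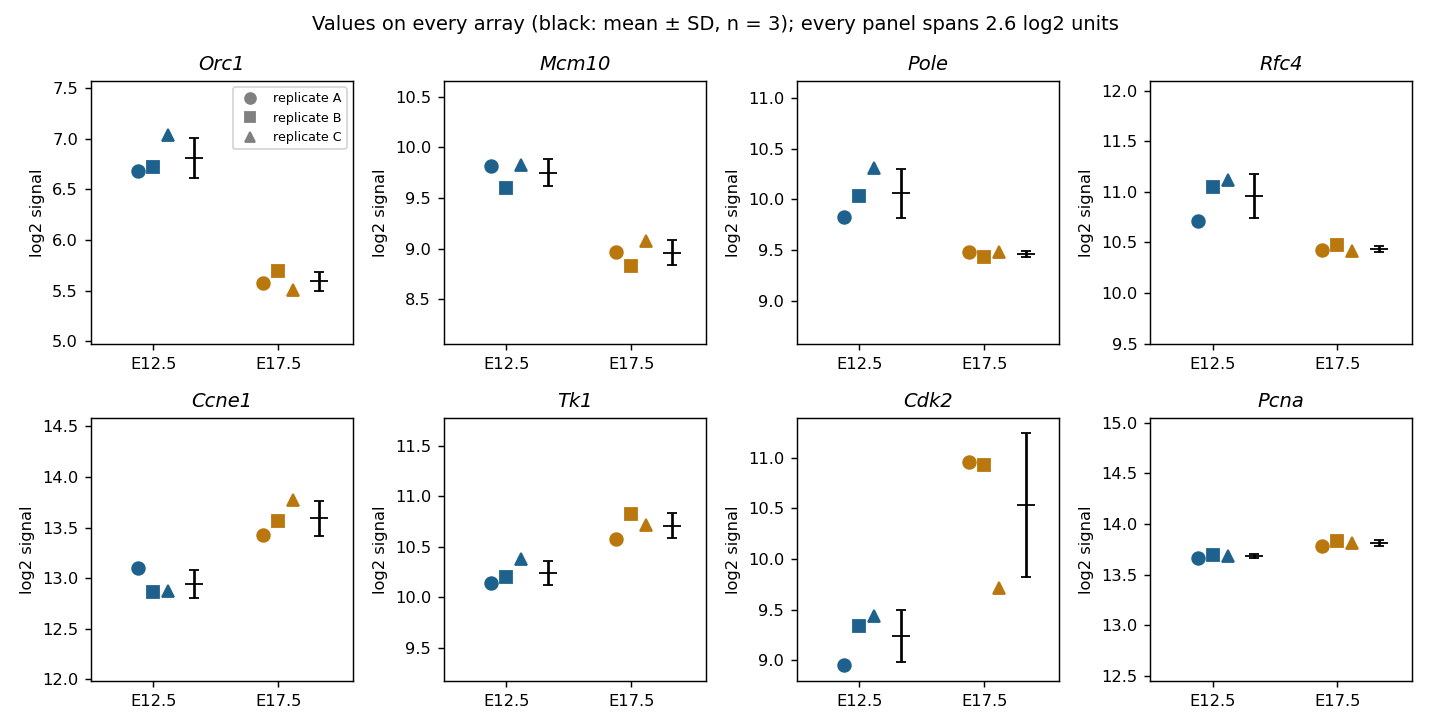
Log2 signal on every array for the 6 called replication genes and for Cdk2 and Pcna, with E12.5 in blue, E17.5 in orange, a symbol for each replicate letter and black marks for the mean and SD of 3 arrays. The ages do not overlap in any of the 8 panels, and in Cdk2 the array E17.5 C, at 9.71, lies near the E12.5 arrays.

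Of the 8 polymerase genes 1 fell and 0 rose in the limma test (1 and 1 at an unadjusted p under 0.05). Pole encodes the catalytic subunit of polymerase epsilon, which copies the leading strand, and read 9.83, 10.03 and 10.31 at E12.5 and 9.48, 9.43 and 9.48 at E17.5. The E17.5 arrays agreed closely and all lay below the E12.5 arrays. Pole fell by 0.59 (SE 0.14, 95% interval -0.93 to -0.26, adjusted p = 0.0319), a 1.51-fold decrease. The call did not hold when any array but E12.5 A was left out: the adjusted p was 0.0813 without E12.5 B, 0.0871 without E12.5 C, 0.105 without E17.5 A, 0.121 without E17.5 B and 0.0594 without E17.5 C. It was 0.11 with E17.5 A and B averaged.

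Pola1, the catalytic subunit of the polymerase that starts each strand with primase, read 8.93, 8.23 and 8.78 at E12.5 and 9.32, 9.60 and 9.03 at E17.5. All its E17.5 arrays were above all its E12.5 arrays, yet the spread within ages was wide and the difference of 0.67 (SE 0.23, 95% interval 0.12 to 1.22) had an adjusted p of 0.107. Its partners differed little: Pola2 by -0.16, Prim1 by 0.09 and Prim2 by -0.09. Pola2 was not called (adjusted p = 0.844) but gave -0.47 with an adjusted p of 0.0481 without E12.5 A, its lowest array at 9.07, and -0.19 (0.815) with E17.5 A and B averaged. The polymerase delta genes Pold1 and Pold2 differed by -0.15 and -0.03, and Pole2, the partner of Pole, by -0.14 (95% interval -0.39 to 0.10). The median over the 8 polymerase genes was -0.12, with -0.02 without E12.5 C, -0.04 without E12.5 B, -0.07 without E17.5 C and -0.20 without E12.5 A.

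Of the 6 clamp and clamp loader genes 1 fell, and 4 of the 6 differences were below 0. Pcna, the clamp that holds polymerases on DNA, was the most tightly measured member: it read 13.66, 13.69 and 13.68 at E12.5 and 13.78, 13.83 and 13.81 at E17.5. These values did not overlap, but the difference was 0.13 (SE 0.07, 95% interval -0.05 to 0.31, adjusted p = 0.345), and the interval excludes a change of 0.5.

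The loader is replication factor C, which opens the clamp and closes it around DNA. Its subunit gene Rfc4 read 10.71, 11.05 and 11.12 at E12.5 and 10.43, 10.48 and 10.42 at E17.5, with no overlap. Rfc4 fell by 0.52 (SE 0.13, 95% interval -0.82 to -0.21, adjusted p = 0.0367), a 1.43-fold decrease, and its second probe set differed by -0.61. The adjusted p was 0.111 without E12.5 B, 0.125 without E12.5 C, 0.125 without E17.5 A, 0.113 without E17.5 B, 0.0737 without E17.5 C and 0.116 with E17.5 A and B averaged, so that the call was kept among these only without E12.5 A.

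Rfc2 read 10.06, 10.30 and 10.41, then 9.79, 9.71 and 9.90, and its ages did not overlap. Its difference of -0.46 (SE 0.13) had an adjusted p of 0.0527, and its other probe sets gave -0.51 and -0.37. Without E12.5 A the gene passed, at -0.56 (adjusted p = 0.0202), and with E17.5 A and B averaged it gave -0.43 (0.181). Rfc5 read 10.49, 10.19 and 10.55 at E12.5 and 9.79, 9.83 and 10.29 at E17.5, where E17.5 C overlapped the E12.5 arrays. Its difference of -0.44 had an adjusted p of 0.152. Without E17.5 C it was -0.60 (adjusted p = 0.0375), a value that rests on E17.5 A and B alone, and with these averaged it was -0.36 (0.388). Rfc3 differed by -0.14 and the large subunit Rfc1 by 0.12. Another probe set of Rfc1 gave -0.41, so its probe sets disagreed.

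The genes that protect and join new strands gave 0 limma calls in 5, and 0 at an unadjusted p under 0.05. Fen1, the nuclease that trims the flaps of Okazaki fragments, read 12.25, 11.78 and 12.18 at E12.5 and 11.89, 11.94 and 11.62 at E17.5. The ages overlapped, and the difference was -0.25 (SE 0.16, adjusted p = 0.388). The ligase gene Lig1 differed by 0.03 (95% interval -0.24 to 0.30). Of the single-strand binding complex, Rpa1 differed by 0.02 (-0.19 to 0.23), Rpa2 by -0.07 (-0.34 to 0.21) and Rpa3 by 0.23 (-0.35 to 0.82). All 5 genes of the group overlapped between the ages.

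Of the 4 nucleotide supply genes 1 rose. Tk1, the cytosolic thymidine kinase of the salvage pathway, read 10.14, 10.20 and 10.38 at E12.5 and 10.58, 10.82 and 10.72 at E17.5, with every E17.5 array above the E12.5 arrays. Tk1 rose by 0.47 (SE 0.11, 95% interval 0.19 to 0.74, adjusted p = 0.0346), a 1.38-fold increase. It did not pass when any single array was left out, with adjusted p between 0.0514 (without E12.5 C) and 0.155 (without E17.5 B), nor with E17.5 A and B averaged (0.0956). The ribonucleotide reductase genes lay near 0: the large subunit Rrm1 differed by -0.08 (95% interval -0.34 to 0.19) and the S-phase small subunit Rrm2 by 0.08 (-0.26 to 0.42), although the other probe sets of Rrm2 gave 0.20 and -0.38. Tyms, which makes thymidylate, read 6.99, 7.15 and 6.44, then 6.91, 7.12 and 5.54. The low E17.5 C value made its difference of -0.34 the least certain in the set (SE 0.45, 95% interval -1.42 to 0.75), and without E17.5 C it was 0.15.

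The S-phase cyclins and their kinase were higher at E17.5 in all 3 genes, none of them overlapping, and 1 was called. Higher values without overlap were found in 22.3% of genes with a mean of at least 6. Ccne1 encodes cyclin E1, which activates CDK2 at the entry to S phase, and read 13.10, 12.86 and 12.87 at E12.5 and 13.43, 13.56 and 13.77 at E17.5. Ccne1 rose by 0.64 (SE 0.12, 95% interval 0.35 to 0.94, adjusted p = 0.0137), a 1.56-fold increase. A second probe set gave 10.86, 10.76 and 10.89 against 11.45, 11.71 and 12.16, a larger difference of 0.94. The gene passed with E17.5 A and B averaged (adjusted p = 0.0358), and missed narrowly without E12.5 C (0.0539) or without E17.5 B (0.0536).

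Cdk2, the kinase that cyclin E activates, had the highest difference of all members and missed the test. Its values were 8.95, 9.34 and 9.44 at E12.5 and 10.96, 10.93 and 9.71 at E17.5. E17.5 A and B stood well above all E12.5 arrays, but E17.5 C was only a little above E12.5 C. The difference was 1.29 (SE 0.35, 95% interval 0.45 to 2.13, 2.45-fold, adjusted p = 0.0501). It was 1.70 without E17.5 C (adjusted p = 0.00302), on E17.5 A and B alone, and 1.08 with E17.5 A and B averaged (0.149), so that its size depends on how far these near-identical arrays count as separate. Its other probe set read between 2.6 and 2.86 on all arrays, in the background range. The other cyclin E gene, Ccne2, read 10.78, 10.06 and 10.74, then 10.91, 10.97 and 10.93, a difference of 0.41 (SE 0.20, adjusted p = 0.245).

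Across roles, the median difference ran from -0.42 in helicase activation, -0.29 in the clamp and its loader, -0.18 in origin licensing (the recognition complex, loading factors and MCM2-7 together) and -0.12 in polymerases, through 0.02 in the strand protection and joining group and 0.00 in nucleotide supply, to 0.64 in the S-phase cyclins. These medians have no test. Under the other settings the medians of the 4 groups below 0 stayed below 0, and that of the cyclins stayed above 0. The strand protection median ran from -0.05 to 0.06 and the nucleotide supply median from -0.05 to 0.11 when single arrays were left out, so neither has a direction.

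Probe sets of one gene did not always differ in the same direction. Of the 49 genes 13 had a single probe set and 36 had 2 to 5. In 25 genes at least 2 probe sets had a mean of at least 6, and in 15 of these all such probe sets differed in 1 direction. Fitted over all 34909 named probe sets, 6 of the members' 106 were called, where 11.3% of all were.

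**Figure D4:**
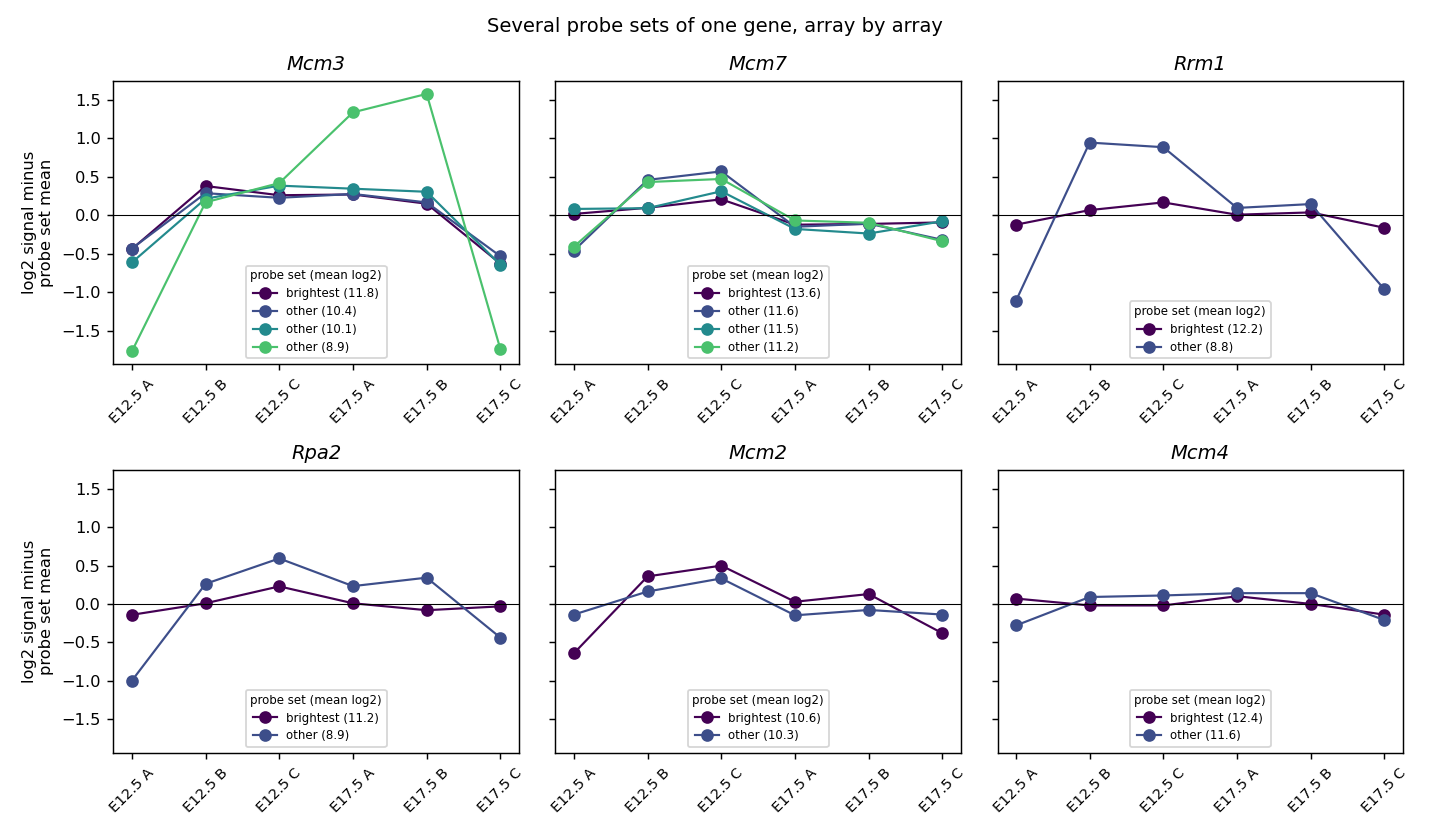
Log2 signal of each probe set minus its own mean over the 6 arrays, for 6 genes with several probe sets of mean at least 6, drawn in the order E12.5 A, B, C and E17.5 A, B, C with 1 line per probe set. The dimmest line drawn for Mcm3 (mean 8.87) dips on E12.5 A and E17.5 C more than the brightest probe set of that gene. The dimmer lines of Rrm1 (8.84) and Rpa2 (8.87) do the same. The second line of Mcm3 dips slightly less than its brightest (0.72 against 0.80). In Mcm2 the brightest line dips more than the other (0.77 against 0.21).

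One array pattern ran across the ages. In 23 of the members' 83 probe sets with a mean of at least 6 (27.7%), E12.5 A and E17.5 C were the 2 lowest of the 6 arrays, as they were in 1587 of 14006 such probe sets in the series (11.3%). Among the dimmer probe sets of the members it was 14 of 34 (41.2%, against 15.4% in the series), and among the brightest 9 of 49 (18.4%, against 8.89%). The widest gap was in another probe set of Mcm3, the green line in the plot of probe sets, which read 7.10, 9.04 and 9.29 at E12.5 and 10.21, 10.45 and 7.13 at E17.5. The pair of low arrays was about equal across the ages there, whereas the other E17.5 arrays were above the other E12.5 arrays. A second probe set of Rrm1 read 7.73, 9.79 and 9.73, then 8.94, 8.99 and 7.88, and one of Rpa2 read 7.87, 9.13 and 9.46, then 9.10, 9.21 and 8.43. A second probe set of Fen1 read 9.19, 10.16 and 10.18, then 9.64, 9.58 and 8.55. In each of these genes the brightest probe set varied less between arrays. Mcm2 went the other way: its brightest probe set had the 2 low arrays. Its other probe set, at 10.20, 10.50 and 10.67, then 10.19, 10.26 and 10.20, varied less. The cause of the pattern was not tested, and the probes' positions in the transcripts were not used here. Without both E12.5 A and E17.5 C, a setting chosen after seeing the data, 4 members rose and 14 fell, 8.16% and 28.6% of members beside 11.7% and 14.6% of all genes: Cdc7, Pola1, Ccne1 and Cdk2 rose, and Tk1 alone of the 6 calls was lost (0.41, adjusted p = 0.072). This setting leaves only the nearly identical arrays A and B at E17.5 (SD of their difference 0.152), so its spread within that age is narrow.

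**Figure D5:**
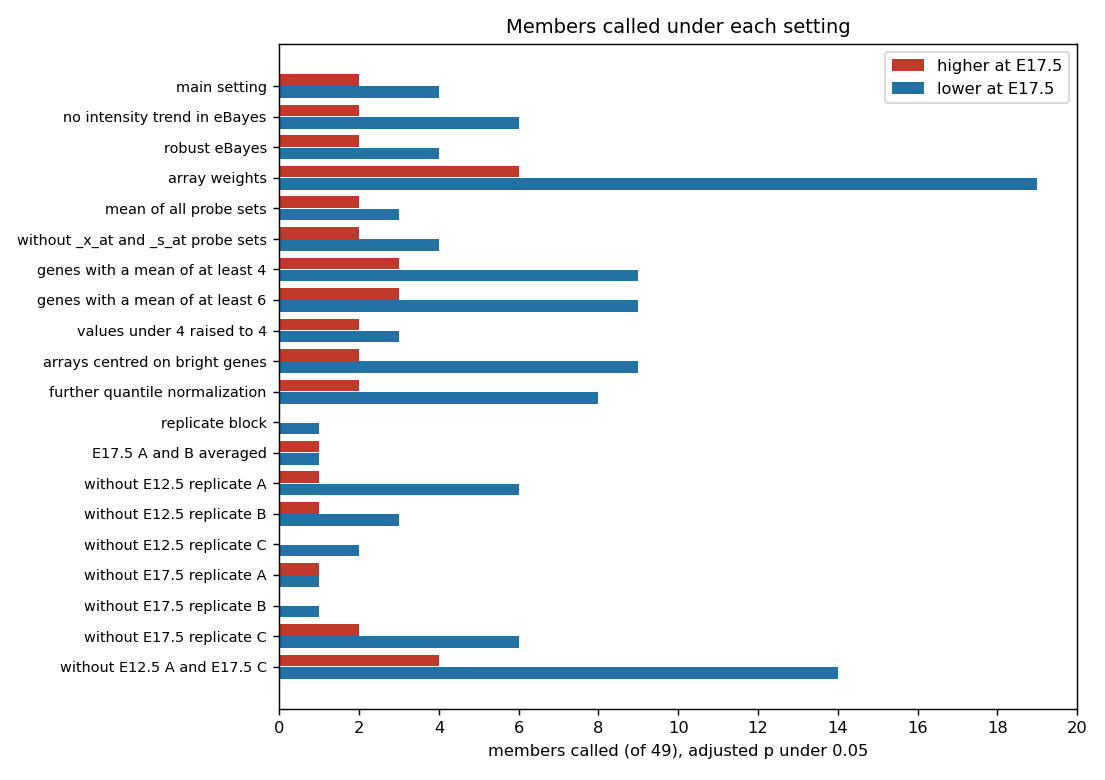
Number of the 49 DNA replication genes called at an adjusted p under 0.05 as higher (red) or lower (blue) at E17.5 under the reported setting and under each of 19 others. The counts run from 0 to 6 higher and from 1 to 19 lower, with the most calls under array weights.

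Other genes of the same pathway were taken from lists that hold none of the 49. Among genes with a mean of at least 6, 13.2% rose and 13.2% fell. Of 39 measured replication factors outside the set 4 rose and 5 fell, or 10.3% and 12.8%. The risen ones were led by Supt16, a histone chaperone subunit of the FACT complex (0.92, adjusted p = 0.00218), E2f1, a transcription factor of the G1 to S transition (0.79, adjusted p = 0.00587), and the polymerase epsilon accessory gene Pole4 (0.72, adjusted p = 0.0404). The fallen ones were led by the exonuclease gene Exo1 (-1.47, adjusted p = 0.0015), Grwd1 (-1.07, adjusted p = 0.00123) and the CDK-activating phosphatase gene Cdc25a (-0.74, adjusted p = 0.0457). Of 25 other nucleotide supply genes limma called 0 higher and 7 lower, or 0% and 28% (2 and 8 genes at an unadjusted p under 0.05). Cad, which starts pyrimidine synthesis, fell from 10.72, 10.98 and 11.20 to 9.63, 9.43 and 9.57 (-1.42, adjusted p = 0.00109), followed by the nucleoside diphosphate kinase gene Nme1 (-0.97) and Dctpp1 (-0.78). Of 10 replication checkpoint genes limma called 0 (1 lower at an unadjusted p under 0.05), and Atr and Chek1 differed by -0.21 and -0.29. The proliferation markers Mki67 and Ccna2 were not called, each with a difference of 0.24 (adjusted p = 0.189 and 0.219).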

How the data were processed

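RNA of GFP-positive limb cells was measured on 6 single-colour arrays after trypsin digestion, sorting and 2-cycle amplification from the 3' end of 100 ng of RNA, per the labels' protocols. The authors deposited GCRMA signals on the log2 scale for every probe set, per the submitters' processing notes. The version of GCRMA is not given in the sources used here. Its background model pushes unspecific signal into a narrow low range, here mostly under 4, where differences depend on that model.

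Symbols came from the platform annotation and were updated to RefSeq symbols (GRCm38.p6). Of 44994 probe sets 34909 had 1 symbol. Each gene took its brightest probe set, and 18182 genes were fitted without further normalization or filter with limma 3.58.1 in R 4.3.3 (lmFit, eBayes with an intensity trend). Benjamini-Hochberg adjustment covered all genes. The fit was tested on simulated data with independent arrays. That test does not cover nearly identical arrays such as E17.5 A and B, or differences as small as those of most members. The replicates are called biological in the labels, and nothing further says whether they are separate litters or pools, so p-values measure the spread between these samples.

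The members and lists were chosen with earlier results of these data known. Values on every array were given for called members, for the largest difference in each role without a call, and for members called in at least 3 other settings. Orc3, Mcm2, Gins3, Pola1, Pcna, Tyms, Ccne2 and the dimmer probe sets shown were added after their values were seen, as were Atr, Chek1 and Ccnd3. Of each pathway list up to 3 called genes in each direction were named, and Mki67, Ccna2 and E2f1 whatever their result. 1 further gene of the rule is not reported here. The fit was repeated with other variance priors, with array weights, with other probe set choices, with filters and a floor on low signal, with other scalings, with the replicate letter as a block, with E17.5 A and B averaged, without each array in turn, and at a threshold of 0.01. Figures were drawn with matplotlib 3.10.9.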

Additional observations from a re-analysis of the deposited data

How the results depend on the processing

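The design of 3 arrays per age, with E17.5 A and B nearly identical, limits the precision. Where counts changed, the cause was not tested. The setting without E12.5 A and E17.5 C leaves only E17.5 A and B at that age, and array weights favour these arrays and E12.5 C. Members called higher, 2 as reported, were 6 with array weights, 1 with E17.5 A and B averaged, 4 without E12.5 A and E17.5 C (added after seeing the data) and 0 at a threshold of 0.01. Members called lower, 4 as reported, were 19 with array weights, 9 among genes with a mean of at least 4 or of at least 6 (18.4% of members, beside 17.8% and 17.1% of all genes fitted), 9 with arrays centred on bright genes, 8 with quantile normalization, 1 with E17.5 A and B averaged, 14 without E12.5 A and E17.5 C and 1 at a threshold of 0.01 (all genes: 4.63% higher and 3.86% lower). Leaving out single arrays gave 0 to 2 higher and 1 to 6 lower, or 0% to 4.08% and 2.04% to 12.2% of members, beside 5.33% to 8.54% and 4.23% to 9.77% of all genes. The replicate block gave 0 higher and 1 lower, Mcm10 (all genes: 6% and 5.58%). The labels do not say whether the letters pair the arrays across the ages. Deviations from the age means correlated over 8758 genes at -0.38 for A, 0.255 for B and -0.0705 for C. With 3 arrays per age, and E17.5 A and B nearly identical, these correlations cannot decide whether the letters pair the arrays.

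The helicase activation median, -0.42, was -0.59 with array weights and -0.22 with the mean of all probe sets. The nucleotide supply median, 0.00, was 0.20 with array weights, 0.22 without E12.5 A and E17.5 C, and -0.05 to 0.11 without single arrays. The cyclin median was 0.94 without probe sets of the _x_at and _s_at kinds.

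Signs turned in genes without a call. With array weights Orc2 was -0.02, Mcm4 0.07, Prim1 -0.09, Lig1 -0.0038 and Tyms 0.46. With the mean of all probe sets Orc2 was -0.19, Cdt1 -0.01, Mcm3 0.30, Mcm4 0.01, Cdc7 -0.17, Rfc1 -0.04, Rpa2 0.01 and Rrm2 -0.03. Without the _x_at and _s_at kinds Mcm3 was 0.01, Mcm4 0.05 and Gins2 0.07. Without E12.5 A and E17.5 C Mcm4 was 0.07, Gins2 0.01, Dbf4 0.05 and Tyms 0.22. Rpa1 was -0.02 with quantile normalization and -0.0042 with E17.5 A and B averaged. Without single arrays the ranges were -0.03 to 0.10 for Orc2, -0.50 to 0.07 for Mcm2, -0.39 to 0.14 for Mcm3, -0.08 to 0.04 for Mcm4, -0.24 to 0.02 for Dbf4, -0.47 to 0.03 for Pola2, -0.04 to 0.18 for Prim1, -0.24 to 0.08 for Pold2, -0.01 to 0.07 for Rpa1, -0.15 to 0.03 for Rpa2, -0.0017 to 0.39 for Rpa3, -0.05 to 0.10 for Lig1, -0.04 to 0.22 for Rrm2 and -0.64 to 0.15 for Tyms.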

Other observations

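Genes that rebuild chromatin behind the replication fork were mostly level, with 1 of 10 risen and 1 fallen (10% each). Of genes with a mean of at least 6, 13.2% rose and 13.2% fell. Asf1b, a histone chaperone gene, read 8.39, 8.78 and 8.65 at E12.5 and 9.64, 9.77 and 9.76 at E17.5, and rose by 1.12 (SE 0.14, limma adjusted p = 0.00247). Nasp, which holds histones H3 and H4 before deposition, read 12.11, 12.22 and 12.17, then 11.34, 11.35 and 11.16, and fell by 0.88 (SE 0.09, adjusted p = 0.00128). In both genes the arrays of each age lay close together and the ages were far apart.

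The 8 measured proliferation genes, Mki67 among them, gave 0 higher and 3 lower limma calls, or 0% and 37.5%. At an unadjusted p under 0.05 the counts were 0 and 3. Among genes with a mean of at least 6, 13.2% rose and 13.2% fell. The D-type cyclin gene Ccnd2, which acts earlier in G1 than cyclin E, read 12.56, 12.73 and 12.65 at E12.5 and 9.52, 9.63 and 9.54 at E17.5, and fell by 3.08 (SE 0.09, 8.48-fold). Ccnd1 fell by 0.89 and the mitotic kinase gene Plk1 by 0.62 (adjusted p = 0.0133 and 0.0325). The remaining D-type cyclin gene, Ccnd3, differed by 0.26 (adjusted p = 0.512). Ccnd1 and Ccnd2 were thus lower at the age at which Ccne1 was higher.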
